A study of Homo sapiens with 4 samples.

Results

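The genes described here encode subunits of the SWI/SNF chromatin remodelling complexes and further proteins named for their ARID DNA-binding domain. They were taken by name from the deposited expression table: each of 31 listed symbols matched 1 row of its 22361 genes or loci. ARID5B, a further ARID gene, is not on the list. RNA had been sequenced from Jurkat cells, a human leukaemia line of the T-ALL type (acute lymphoblastic leukaemia of T cells). There were 2 control libraries with shRNA targeting GFP and 2 knockdown libraries with shRNA targeting the long non-coding RNA ARIEL. In both groups the shRNA was delivered by lentivirus, infected cells were kept under 0.7 µg/ml puromycin for 36 h or more, and pellets were taken at 72 h. All libraries come from a single cell line and 1 shRNA label per group, and the labels give neither the hairpin sequences nor whether replicates were separate cultures. The p-values therefore measure only the spread between these libraries, which may be technical.

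SWI/SNF complexes use ATP to slide or evict nucleosomes, which opens promoters and enhancers to transcription factors. Each complex carries either SMARCA4 (BRG1) or SMARCA2 (BRM) as its motor, a set of core subunits, and subunits that define its form. Canonical BAF has ARID1A or ARID1B with a DPF protein, and PBAF has ARID2 with PBRM1, BRD7 and PHF10. The non-canonical form has BRD9. Many positions are filled by one of several paralogues, so the mix of paralogues sets which complexes a cell can build, and in developing T cells the SMARCA4-containing complexes are needed for normal thymocyte maturation.

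Expression is given as rlog, the regularised logarithm of DESeq2, a log2 scale on which low or noisy measurements are shrunk towards their gene's average, so that differences come out smaller than they are. Differences below are knockdown minus control on that scale, with the standard error (SE) of a limma model, n = 2 libraries per group. A gene is called where its p-value, adjusted over all 14601 genes tested, is under 0.05. Median rlog over the tested genes was between 11.31 and 11.32 in all 4 libraries. No library totals are given, so depth is unknown. In bulk RNA, fewer cells of a type and less RNA per cell cannot be told apart. XLOC_005968, the locus that background knowledge of the study links to ARIEL, had rlog values of 12.02 and 11.91 in control libraries and 10.58 and 10.55 in knockdown libraries. All 12 of the T-ALL markers listed were above the level filter, with mean rlog from 10.13 to 16.73. Among markers of other cell types, MS4A1 (B cell), CSF1R (myeloid), EPCAM and COL1A2 (stromal) were listed at 0 in every library. Of the myeloid list 2 of 5 genes, ITGAM and CD14, passed the filter, and of the stromal list 1 of 3, COL1A1. In the B-cell list 1 of 5 genes, CD79A, passed it. The log2 of that list's summed level was 10.92 to 11.00 in controls and 11.24 to 11.26 in knockdown libraries, and its part in the results was not tested. The summed myeloid level was 5.20 to 5.25 in controls and 5.17 to 5.19 in knockdown libraries, and the stromal level, nearly all COL1A1, 7.36 to 7.41 and 7.20 to 7.21.

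The SWI/SNF and ARID genes moved in both directions, and the largest changes were falls of SMARCA2 and DPF3. Of the 31, 30 were tested. ACTL6B, the neuronal actin-related subunit, was listed at 0 in all 4 libraries. Of the 30, 7 fell (SMARCA2, DPF3, ARID4B, ARID1B, ARID4A, SS18 and ARID2) and 5 rose (DPF1, SMARCB1, BCL7B, BCL7A and SMARCD2). That is 40.0% called, near the 44.4% called among all tested genes, of which 22.1% rose and 22.4% fell. The members' median difference was -0.02, against 0.00 over all tested genes, and called differences had a median size of 0.15 in both sets. The 2 groups did not overlap in 20 of the 30, 9 with higher and 11 with lower knockdown values, beside 70.7% of all tested genes (35.6% higher, 35.1% lower). A call with a difference of at least 0.25 in size was made for SMARCA2 and DPF3, and for 7.46% of all tested genes. ARID4B lay just short of that size. In the authors' deposited table the same 12 members had an adjusted p under 0.05, 5 higher and 7 lower, where 39.4% of 14551 genes did (20.1% higher, 19.3% lower). There 2 members, SMARCA2 and DPF3, also changed at least 1.5-fold, as did 5.73% of all genes. The spread was shared between genes of similar level. When the variance was taken from each gene alone (2 residual degrees of freedom), limma called 0 members, with 8 at an unadjusted p under 0.05 (26.7%, beside 31.2% of all tested genes). Without ARIEL knockdown replicate 2, 1 member rose and 5 fell, where 2004 and 2221 of the 14601 genes did. Without control replicate 1, 3 members rose and 8 fell, where 2580 and 2690 of all genes did.

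**Figure D1:**
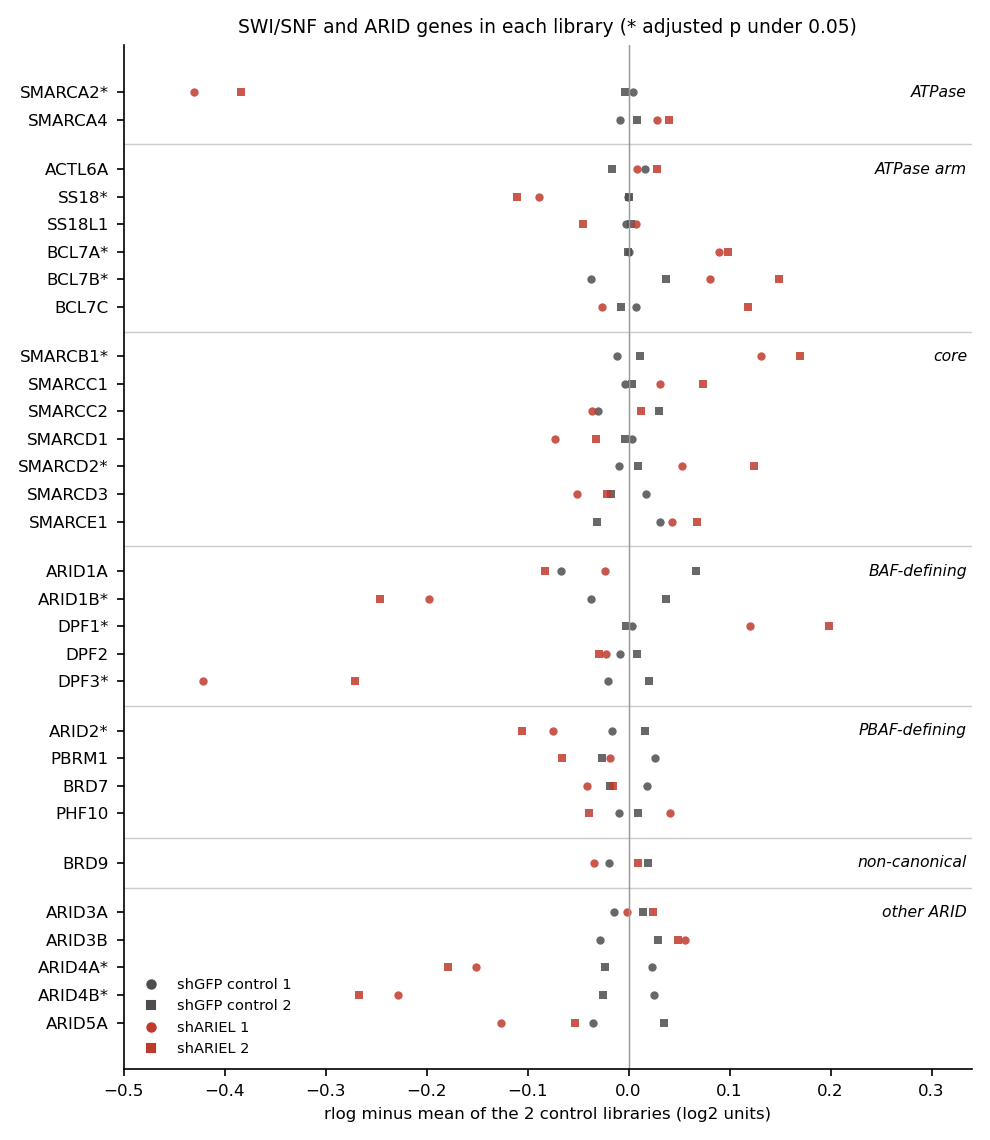
Each row is a member, grouped by role, and each point is 1 library's rlog minus the mean of the 2 control libraries (log2 units). Grey points are control and red points ARIEL knockdown libraries, circles replicate 1 and squares replicate 2, and an asterisk marks an adjusted p under 0.05. The red points of SMARCA2 and DPF3 lie farthest to the left, while those of SMARCB1 and DPF1 lie to the right of both control points.

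Some members carry 3′ UTR words that had been picked earlier from these same data. An earlier look at these same data had picked the word GATGACA, and its shifted form AGATGAC, because genes carrying them in the 3′ UTR were lower, and TGTTGTC and GTTGTCA because their carriers were higher. The words were chosen with these genes in view and support nothing here. Of 30 tested members with a searched 3′ UTR, 3 carry a word of the first kind and 1 a word of the second, where 13.4% and 15.3% of 12335 UTRs do. The carrier sites are shown 5′ to 3′ on the transcript strand (GENCODE 29, GRCh38), with the word in capitals, since they show which members have it.
ARID4A (chr14:58372944-58372973, plus strand): ttcactctttgGATGACAatagctctcagc
SS18 (chr18:26016587-26016616, minus strand): tgagtagctggGATGACAggcacccgccac
SMARCC1 (chr3:47588140-47588169, minus strand): gctggagtgggGATGACAagacttgtgttc
SS18L1 (chr20:62179621-62179650, plus strand): ttgtagtgtggGTTGTCAacttttctttaa
Of these carriers of GATGACA, ARID4A and SS18 fell and SMARCC1 did not pass the test (0.05 ± 0.03). SS18L1, which carries GTTGTCA, did not pass either. The 4 largest falls, SMARCA2, DPF3, ARID4B and ARID1B, carry none of the 4 words in the 3′ UTR searched, that of the transcript with the longest coding sequence. Other 3′ UTR forms of these genes were not searched.

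The alternative ATPase fell while the main one was not called. SMARCA2, one of the exclusive motor subunits, had rlog values of 12.29 in both control libraries and 11.86 and 11.91 in knockdown libraries. Both knockdown values lie well below both controls, and the gap between groups is about the size of the whole difference, since replicates were nearly equal. SMARCA2 differed by -0.41 ± 0.04 (SE; limma, adjusted p = 9.03e-27), and the authors' deposited table gives a 1.68-fold fall (log2 fold change -0.75 ± 0.07, SE). SMARCA4, its paralogue, was at 15.23 and 15.24 in controls and at 15.26 and 15.27 in knockdown libraries. Its difference was 0.03 ± 0.03 (limma, adjusted p = 0.400, 95% interval -0.03 to 0.10). The log2 ratio of SMARCA4 to SMARCA2 was 2.93 and 2.96 in controls and 3.40 and 3.37 in knockdown libraries, a difference of 0.44 ± 0.05 (95% interval 0.35 to 0.54). Per length of transcript, SMARCA4 stood 8.19-fold above SMARCA2 in controls and 11.1-fold above it in knockdown libraries, on the rlog scale.

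In the ATPase arm, 2 of the BCL7 genes rose and SS18 fell, all by small amounts. This arm joins the motor to actin-like proteins and to the small SS18 and BCL7 subunits. ACTL6A (BAF53A), the actin-related protein of dividing cells, was at 13.67 and 13.63 in controls and 13.66 and 13.68 in knockdown libraries, a difference of 0.02 ± 0.03 (SE) with overlapping groups. BCL7A, a gene found rearranged in a lymphoma, was at 13.40 in both controls and at 13.49 and 13.50 in knockdown libraries. Its difference was 0.09 ± 0.03 (limma, adjusted p = 0.0115). BCL7B was at 12.06 and 12.13 in controls and 12.18 and 12.25 in knockdown libraries, a difference of 0.11 ± 0.04 (limma, adjusted p = 0.00517). The groups did not overlap, but replicates lay farther apart than the nearest values of the 2 groups. BCL7C, at 12.13 and 12.11 against 12.09 and 12.24, overlapped between groups and was not called. Without ARIEL knockdown replicate 1 it was called at 0.12 (limma, adjusted p = 0.0445), and without ARIEL knockdown replicate 2 it stood at -0.03.

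SS18, the subunit fused to SSX in synovial sarcoma, was at 11.98 in both controls and at 11.89 and 11.87 in knockdown libraries. The groups did not overlap and the difference was -0.10 ± 0.04 (SE; limma, adjusted p = 0.0203). Its paralogue SS18L1 (CREST) was at 11.95 in both controls and at 11.96 and 11.91 in knockdown libraries, and was not called. The change of their log2 ratio was -0.08 with a 95% interval of -0.18 to 0.02, so the data do not separate SS18 from SS18L1 in response. The call on SS18 was lost without control replicate 1 (limma, adjusted p = 0.0519), without ARIEL knockdown replicate 1 (0.0702) and without ARIEL knockdown replicate 2 (0.176). BCL7A was not called without either knockdown library (0.0659 and 0.113). BCL7B was not called without control replicate 1 (0.129) or ARIEL knockdown replicate 2 (0.220).

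Among the 7 core subunits, 2 rose and none of the others passed the test, where 22.1% of all tested genes rose and 22.4% fell. SMARCB1 (SNF5), the core subunit lost in rhabdoid tumours, was at 13.32 and 13.34 in controls and 13.46 and 13.50 in knockdown libraries. Both knockdown values exceed both controls, and SMARCB1 differed by 0.15 ± 0.03 (SE; limma, adjusted p = 2.60e-05), 1.21-fold higher in the authors' deposited table. SMARCB1 shares 2923 exon bases with DERL3 on the opposite strand. DERL3 fell by 0.16 on the rlog scale, and whether reads were counted by strand is not given. SMARCD2, a BAF60 subunit known for its part in granulocyte development, was at 14.71 and 14.73 in controls and 14.77 and 14.84 in knockdown libraries, a difference of 0.09 ± 0.03 (limma, adjusted p = 0.0148). Without control replicate 1 its adjusted p was 0.0976, and without ARIEL knockdown replicate 2 it was 0.372, with a difference of 0.05. The scaffold genes SMARCC1 (BAF155) and SMARCC2 (BAF170) differed by 0.05 ± 0.03 and -0.01 ± 0.03, SMARCE1 (BAF57) by 0.06 ± 0.03, SMARCD1 by -0.05 ± 0.03 and SMARCD3 by -0.04 ± 0.04. Between BAF60 paralogues, the log2 ratio of SMARCD1 to SMARCD2 was -1.18 and -1.21 in controls and -1.32 and -1.35 in knockdown libraries. It changed by -0.14 ± 0.05 (95% interval -0.23 to -0.05).

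The subunits that define canonical BAF split by paralogue. ARID1B, the alternative to ARID1A, was at 12.70 and 12.78 in controls and 12.54 and 12.50 in knockdown libraries. All knockdown values lay below the controls, with a difference of -0.22 ± 0.03 (SE; limma, adjusted p = 2.06e-09), 1.32-fold lower in the authors' deposited table. ARID1A, a tumour suppressor and the more abundant paralogue, was at 13.71 and 13.84 in controls and 13.75 and 13.69 in knockdown libraries. Its groups overlapped and its control libraries differed by 0.13, the widest control gap among the members. ARID1A differed by -0.05 ± 0.03 and was not called (limma, adjusted p = 0.178). Without control replicate 1 it differed by -0.12 and was called (adjusted p = 0.00656), and without control replicate 2 the sign turned (0.01, adjusted p = 0.794). The log2 ratio of ARID1A to ARID1B was 1.00 and 1.06 in controls and 1.21 and 1.19 in knockdown libraries, a change of 0.17 ± 0.05 (95% interval 0.08 to 0.26).

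The DPF genes, whose tandem PHD fingers bind acylated histone H3, also moved both ways. DPF3 was at 10.13 and 10.17 in controls and 9.73 and 9.88 in knockdown libraries, the latter gap of 0.15 being the widest between knockdown libraries among the members. Even so both lay below the controls. DPF3 differed by -0.35 ± 0.05 (SE; limma, adjusted p = 3.25e-12), and the authors' deposited table gives a 1.62-fold fall (log2 fold change -0.69 ± 0.12, SE). DPF1 was at 10.10 in both controls and at 10.22 and 10.30 in knockdown libraries, a difference of 0.16 ± 0.05 (limma, adjusted p = 0.00196). Without ARIEL knockdown replicate 2 the call on DPF1 was lost (0.116). DPF2, the widely expressed paralogue, was at 12.89 and 12.91 in controls and 12.88 and 12.87 in knockdown libraries, and was not called. The log2 ratio of DPF1 to DPF3 went from -0.03 and -0.07 to 0.49 and 0.42, a change of 0.51 ± 0.07 (95% interval 0.38 to 0.63). That was the largest of the 16 pairs compared, but its interval overlapped that of SMARCA4 over SMARCA2 (0.35 to 0.54). For DPF2 over DPF3 the change was 0.32 ± 0.06 (95% interval 0.21 to 0.43), and for DPF1 over DPF2 it was 0.19 ± 0.06 (0.07 to 0.30).

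**Figure D2:**
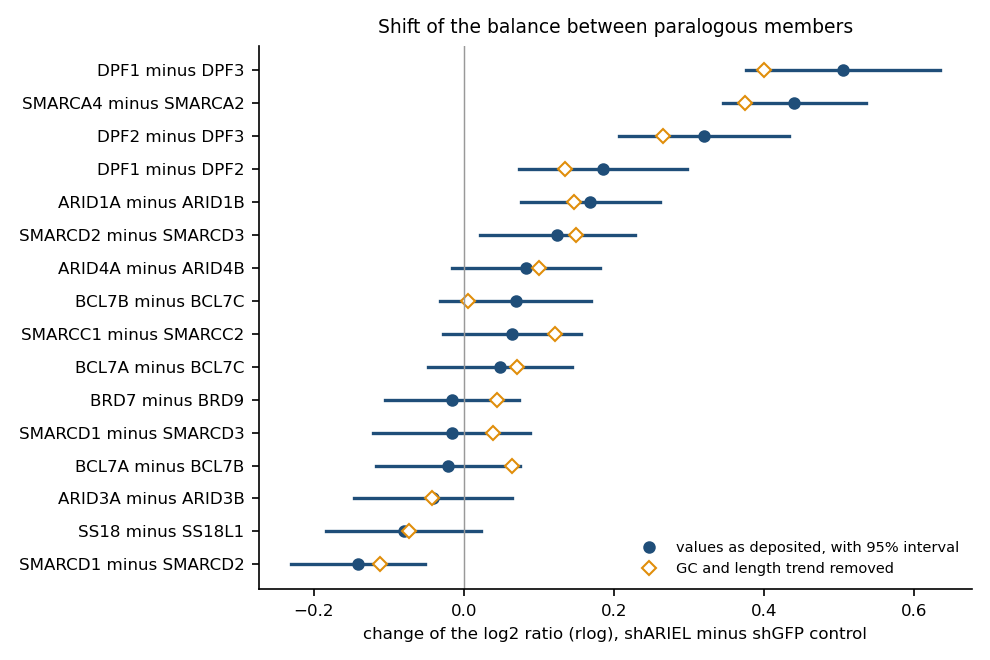
Each row is a pair of paralogous members, and the axis is the knockdown minus control change of their log2 ratio in rlog units. Filled points show the values as deposited with a 95% interval that takes the errors of both genes as independent, and open diamonds the change after the trend with GC content and length was removed. In 7 of the 16 pairs the interval does not include 0, led by DPF1 minus DPF3 and SMARCA4 minus SMARCA2. Pairs within the DPF, SMARCD and BCL7 groups share genes, so the pairs are not independent. How often other pairs of genes change in this way was not measured.

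Of the subunits of PBAF and of the non-canonical complex, 1 of 5 was called, where 44.4% of all tested genes were. ARID2 (BAF200), which defines PBAF, was at 14.28 and 14.31 in controls and 14.22 and 14.19 in knockdown libraries. The groups did not overlap and ARID2 differed by -0.09 ± 0.03 (SE; limma, adjusted p = 0.0127). ARID2 lost this call when a trend with GC content and transcript length was removed (limma, adjusted p = 0.535). Without control replicate 2 its adjusted p was 0.103, and without ARIEL knockdown replicate 2 it was 0.180. The other 3 PBAF genes were not called and their groups overlapped. PBRM1 (polybromo), a renal cancer suppressor, differed by -0.04 ± 0.03, BRD7 by -0.03 ± 0.03 and PHF10 by 0.00 ± 0.04. BRD9, the bromodomain subunit of the non-canonical complex, differed by -0.01 ± 0.03, with a 95% interval of -0.08 to 0.05. SMIM4, which shares 146 exon bases with PBRM1 on the opposite strand, rose by 0.34 ± 0.05.

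Of the ARID genes outside these complexes, both ARID4 paralogues fell. ARID4A and ARID4B encode retinoblastoma-binding proteins of the SIN3 histone deacetylase complex. ARID4B was at 13.68 and 13.63 in controls and 13.42 and 13.39 in knockdown libraries, a difference of -0.25 ± 0.03 (SE; limma, adjusted p = 6.21e-13), 1.36-fold lower in the authors' deposited table. ARID4A was at 11.86 and 11.81 in controls and 11.68 and 11.66 in knockdown libraries, a difference of -0.16 ± 0.04 (limma, adjusted p = 8.34e-05). Neither gene's groups overlapped, and the change of their log2 ratio, 0.08, had a 95% interval of -0.02 to 0.18. ARID4B shares 1603 exon bases on the same strand with RBM34 in GENCODE 29, so their reads may not be fully separable. RBM34 differed by 0.05 ± 0.03 and was not called.

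ARID5A, an RNA-binding regulator of inflammatory transcripts, was at 11.10 and 11.17 in controls and 11.00 and 11.08 in knockdown libraries. Its difference of -0.09 ± 0.04 did not pass (limma, adjusted p = 0.0652), though it did without control replicate 1 (-0.13, adjusted p = 0.0256). ARID3A (Bright), which binds E2F1, and its paralogue ARID3B differed by 0.01 ± 0.04 and 0.05 ± 0.04. Over the 8 ARID-named genes described here, 4 fell and 0 rose (limma at the threshold above), 50.0% called beside 44.4% of all tested genes, of which 22.4% fell. At an unadjusted p under 0.05 with each gene's own variance, 3 of them (ARID4B, ARID1B and ARID4A) were lower, where 31.2% of all genes passed in either direction. The remaining ARID-domain genes had 4 of 6 lower and 0 higher, and 6 lower with a trend with GC content and transcript length removed. With that trend removed, 24.3% of all 12719 genes with known transcripts were lower. The 6 include ARID3C, a gene of low level whose groups overlapped as deposited (0.00 ± 0.03). ARID3C was lower only with the trend removed (-0.09), so its call rests on that correction. ARID5B, an activator in the TAL1 circuit of T-ALL, had the largest fall of the 6 (rlog 14.04 and 13.99 against 13.57 and 13.55). The histone H3K4 demethylase genes KDM5A (-0.14 ± 0.03) and KDM5B (-0.13 ± 0.03) and the Polycomb cofactor gene JARID2 (-0.09 ± 0.03) fell as well. These counts are small, and no test set them against other genes.

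The calls stood beside a trend with base composition. Across 12719 tested genes with known transcripts the difference rose with transcript GC content, from a median of -0.08 in the lowest GC decile to 0.08 in the highest. Replicates of a group differed along the same property (Spearman's rho across genes 0.59 between the controls and 0.40 between the knockdown libraries, beside 0.40 between groups). The genes are not independent replicates, and the part of this trend in the calls was assessed only by removing it. Of the 5 risen members, DPF1, BCL7B, SMARCB1 and SMARCD2 have GC contents of 61.9, 61.2, 59.1 and 58.8%, at percentiles from 78.5 to 88.2 of tested genes, and BCL7A has 53.7%. The fallen ARID4A, ARID4B, ARID2 and SS18 lie at 37.5, 39.1, 40.8 and 42.5%, at percentiles of 23.5 or lower. The fallen SMARCA2 (48.7%), DPF3 (48.6%) and ARID1B (53.7%) lie near the middle.

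With the trend with GC content and length taken out of each library, 7 of the 12 calls held and 5 did not. SMARCA2 then differed by -0.37, DPF3 by -0.32, ARID1B by -0.21, ARID4B by -0.16, BCL7A by 0.10 and SMARCB1 by 0.09. ARID4A was only just called at -0.06 (limma, adjusted p = 0.0497), and not with the replicate number as a block as well (0.0570). The calls on SS18 (0.0872), ARID2 (0.535), SMARCD2 (0.0689), BCL7B (0.300) and DPF1 (0.0653) were lost, with no change of sign. Another 6 members gained a call. SMARCE1 (0.11) and SMARCC1 (0.10) were higher, and ARID5A (-0.17), SMARCD3 (-0.11), SMARCD1 (-0.07) and ARID1A (-0.07) lower. In all 4 rose and 9 fell of 30, where 29% of all 12719 genes rose and 24.3% fell (53.3% called). The 16 paralogue pairs kept the sign of every change whose interval left out 0, with SMARCA4 over SMARCA2 at 0.38 ± 0.03 and DPF1 over DPF3 at 0.40 ± 0.06. Those of SMARCC1 over SMARCC2 (0.12 ± 0.03) and ARID4A over ARID4B (0.10 ± 0.03), whose intervals had included 0, were then larger.

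**Figure D3:**
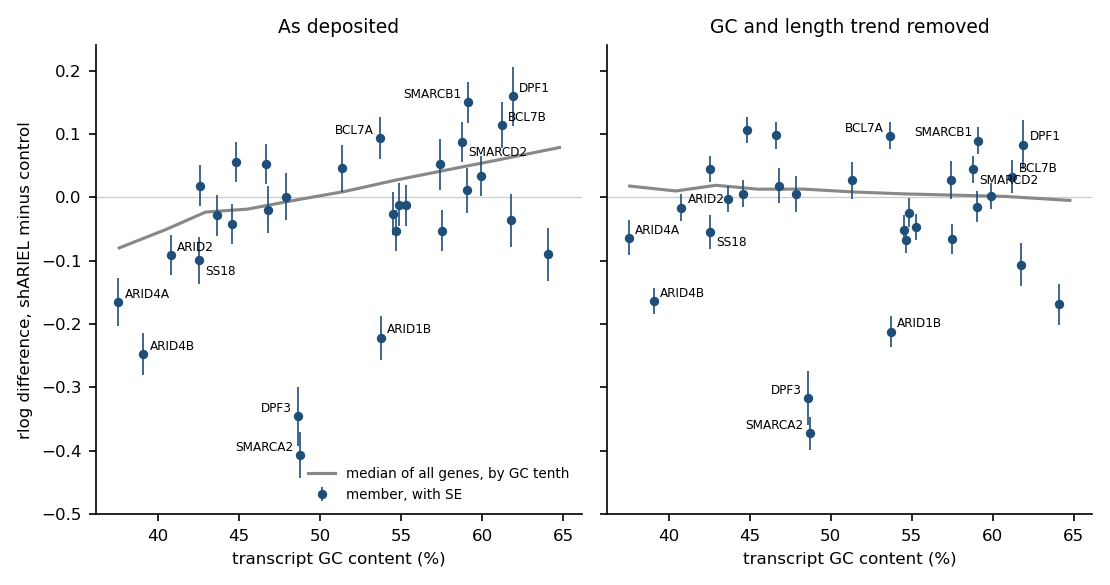
Each point is a member, with transcript GC content (%) on the x axis and the rlog difference, knockdown minus control, with its SE on the y axis. The left panel shows values as deposited and the right panel values with the GC and length trend removed, and the grey line is the median over all genes in each GC decile. SMARCA2, DPF3 and ARID1B lie far below the grey line in both panels, whereas SMARCD2, BCL7B, SS18 and ARID2 lie closer to it.

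By level per length, the members spanned a wide range, and the 7 fallen members were spread over its middle and low end. The level per length is the rlog minus the log2 of the transcript length in kb. SMARCD2 was highest at a mean of 13.32 over the 4 libraries, above 94.5% of tested genes with a known length, followed by BRD7 at 12.92, SMARCA4 at 12.79 and ACTL6A at 12.73. SMARCB1 and SMARCC1 were both at 12.62, but their order differed by group. SMARCB1 was the lower in both controls (12.54 and 12.56 against 12.59 and 12.60). It was the higher in both knockdown libraries (12.68 and 12.72 against 12.63 and 12.67). With the GC and length trend removed, SMARCB1 and SMARCC1 differed between groups by similar amounts, 0.09 and 0.10. Their order per length also rests on a single annotated transcript for each gene. ACTL6A lay above SMARCB1 within each group. DPF3 was lowest at 7.80, above 25.0% of genes. ARID2 at 11.13, ARID4B at 10.96 and SS18 at 10.16, which also fell, stood in the middle of the order. After DPF3 the lowest were ARID4A at 9.19, ARID1B at 9.20, ARID3B at 9.27, DPF1 at 9.47 and SMARCA2 at 9.53. Among these, ARID4A and ARID1B overlapped within each group, so their order does not exceed their spread. ARID1B and ARID3B overlapped in controls, but ARID3B was the higher in both knockdown libraries (9.30 and 9.29 against 9.11 and 9.06). SMARCA2 was above DPF1 in both controls (9.74 and 9.73 against 9.40 and 9.39). It was below DPF1 in both knockdown libraries (9.31 and 9.35 against 9.51 and 9.59). SMARCA4 to SMARCA2, SMARCC1 to SMARCC2 (3.48-fold per length in controls), ARID1A to ARID1B (2.57-fold) and DPF2 to DPF3 (12.4-fold) each had the first paralogue as the higher.

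**Figure D4:**
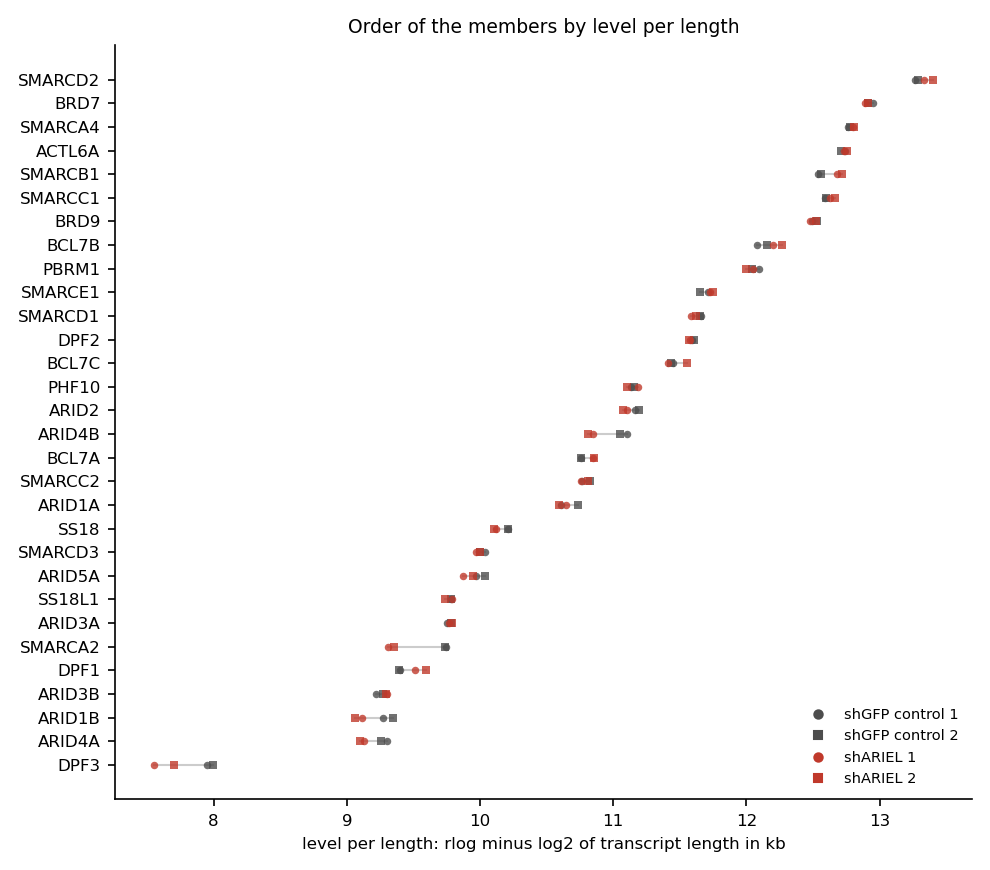
The 30 tested members are ordered by their mean level per length (rlog minus log2 of the transcript length in kb), with a point for each library, grey for control and red for ARIEL knockdown, and a line from the lowest to the highest. The levels run from SMARCD2 at 13.32 to DPF3 at 7.80, and the grey and red points of SMARCA2 and DPF3 stand visibly apart.

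Subunits of the other ATP-dependent remodellers also moved both ways. Of 54 tested genes of the ISWI, CHD and NuRD, and INO80 and SWR1-type families, 14 rose and 12 fell, 48.1% called beside 44.4% of all genes, with a median of 0.00. Without ARIEL knockdown replicate 2 these counts were 5 and 7, and without ARIEL knockdown replicate 1 both were 9. With the GC and length trend removed, 17 rose and 14 fell, where 29% of 12719 genes rose and 24.3% fell (53.3% called). ISWI genes, which space nucleosomes, had 4 of 12 lower and 0 higher, with BAZ1B at -0.17 ± 0.03 (SE) and the histone-fold subunit gene POLE3 at -0.16 ± 0.03. With the trend removed this list had 3 higher and 4 lower, so the count was no longer on 1 side. The CHD and NuRD list, of which the NuRD part couples remodelling to histone deacetylation, had 7 of 21 higher and 2 lower. MTA2 (0.14 ± 0.03) and MTA1 (0.14 ± 0.03) rose, while the histone chaperone gene RBBP4 differed by -0.15 ± 0.03 and CHD1 by -0.11 ± 0.03. With the trend removed the list had 11 higher and 1 lower, and CHD1, with a GC content of 38.1%, stood at -0.01 and was not called (limma, adjusted p = 0.612). INO80 and SWR1-type genes, which exchange H2A.Z, had 7 of 21 higher and 6 lower, from RUVBL1 (0.17 ± 0.03) and ACTR8 (0.15 ± 0.04) to YEATS4 (-0.24 ± 0.04) and ACTR6 (-0.19 ± 0.04). With the trend removed the balance turned to 3 higher and 9 lower. ACTR6 varied between replicates (11.96 and 11.81 in controls, 11.80 and 11.58 in knockdown libraries), and in the authors' deposited table its adjusted p was 0.284. Of 5 further SWI/SNF-associated genes, 1 fell and 0 rose. That gene was BCL11B, a T-lineage transcription factor that binds BAF, at 14.24 and 14.29 in controls and 14.16 and 14.19 in knockdown libraries (-0.09 ± 0.03). On the rlog values, with or without the trend, none of the 54 remodeller genes had a difference as large in size as those of SMARCA2 or DPF3.

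**Figure D5:**
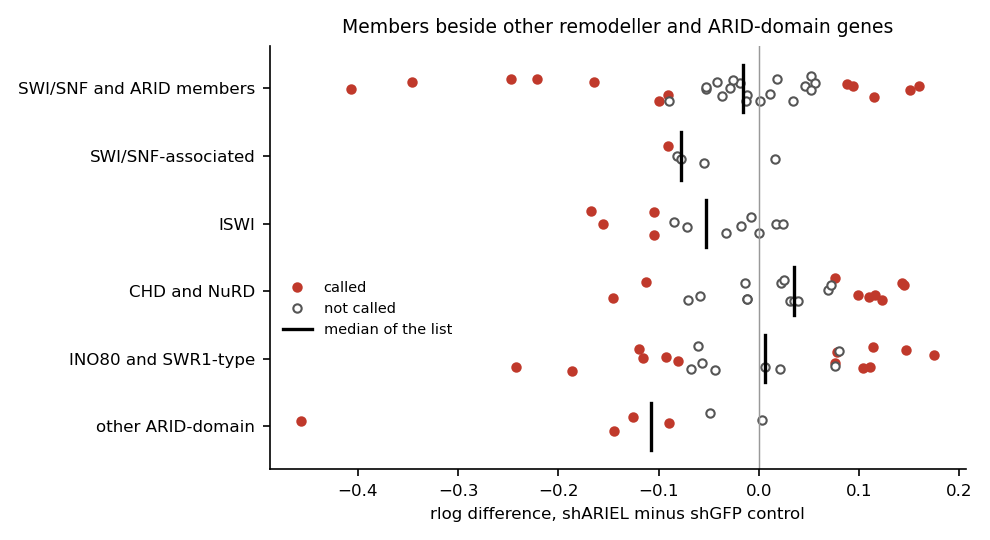
Each point is a gene's rlog difference, knockdown minus control (x axis), by gene list (rows, with random vertical scatter), filled red where the adjusted p is under 0.05, with a bar at the list's median. The SWI/SNF and ARID members reach from -0.41 to 0.16, and the other remodeller lists from -0.24 to 0.17, while ARID5B in the ARID-domain list lies at -0.46.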

How the data were processed

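RNA from 4 Jurkat libraries (2 control, 2 ARIEL knockdown, grouped by sample title) had been sequenced as strand-specific pairs of 100 bases, per the labels' protocols. The same protocols describe ERCC spike-ins, dosed to the counted cells, and whether they entered the scaling is not given. Tools and build are known from the submitters' processing notes, which list DESeq2 1.12.4, HTSeq 0.6.1, STAR 2.5.2a and the hg19 build with no roles. The deposited table holds rlog values, a log2 unit by its header, for each library. For the group comparison the authors deposited a log2 fold change, its standard error, the test statistic (a score), a p-value and an adjusted p. Annotation, low-count filter and strand setting are unknown here. No counts were used, so no counting error is given.

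limma 3.58.1 in R 4.3.3 (lmFit, eBayes with a trend on level) was run on the rlog values with no pseudocount, over 14601 genes whose rlog averaged log2 of 10 or more, with Benjamini-Hochberg adjustment at 0.05. limma put the prior degrees of freedom at infinity, so genes of a level share 1 spread. The script was tested on simulated data. Transcript GC content, length, 3′ UTRs and overlapping exons came from GENCODE 29 (GRCh38, not the files' build), matched by gene ID for all 30 tested members, using the transcript with the longest coding sequence. The trend was removed per library by splines with 5 degrees of freedom each for GC content and length. Paralogue intervals are the change ± 1.96 SE. All 31 members are accounted for. Values in every library are given for called members and for the ATPase, ATPase arm and BAF-defining groups, and at least a difference for the others. In other lists the 2 largest called changes each way with groups that do not overlap are named. KDM5B, JARID2 and ARID3C were named after their values were seen. Alternatives covered the filter, variance model, scaling, deposited statistic, trend, replicate block and left-out libraries. The members and lists were chosen with earlier results of these data known.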

Additional observations from a re-analysis of the deposited data

How the results depend on the processing

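All 12 called members kept their sign in each of 13 alternatives, and 5 (SMARCA2, DPF3, ARID4B, ARID1B and SMARCB1) kept their call in all but the fit on each gene's own variance or the fit with no filter. With no filter on level, 1 member rose and 2 fell, over all genes 1055 rose and 1228 fell, and of the other remodellers 3 rose and 2 fell. With each gene's own variance all 6 of these counts were 0 by limma, with 8 members, 4561 genes and 13 other remodellers at an unadjusted p under 0.05. Leaving out each library in turn gave 1 to 5 risen and 5 to 8 fallen members, 2004 to 3061 risen and 2221 to 3127 fallen genes, and 5 to 11 risen and 7 to 11 fallen other remodellers, the lowest counts being without ARIEL knockdown replicate 2. Without a trend on level, SMARCD2 was not called (adjusted p = 0.0524). Median centring of the libraries changed no member's call. Quantile normalisation added SMARCC1.

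Replicate numbers are shared between groups, but nothing says that they pair the libraries. Deviations of same-numbered libraries correlated at 0.20 across genes, and at 0.00 with the GC and length trend removed. With the replicate block 6 members rose and 8 fell, adding SMARCE1 and ARID5A, 3722 and 3704 of all genes were called, and of the other remodellers 18 rose and 14 fell. With the block used and the trend removed, 4 members rose and 8 fell, where 3691 and 3151 of 12719 genes did. Depth is unknown, so what it limits could not be measured.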
